A study of Mus musculus with 2 samples.

Results

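The Kruppel-like factor (Klf) genes Klf1, Klf2, Klf3, Klf4, Klf6, Klf7, Klf9, Klf10, Klf11 and Klf13 were measured by total RNA-seq in cells labelled megakaryocyte progenitor (CFU-Meg, the colony-forming precursor of the platelet-producing megakaryocyte). These 10 members were named by symbol, with earlier results of these data known. All 10 matched a row in both gene tables among 43346 Ensembl genes. They are 10 of the 17 Klf genes of the mouse in the annotation used. The samples were 2 libraries of primary cells of adult male C57BL/6J mice, 5 to 6 weeks old, each begun with 1 ng of RNA. The libraries are biological replicates 1 and 2 of 1 group with no treatment, mutant allele or control group, and they come from separate biosamples listed under 1 donor identifier. The spread between them may therefore be technical. Levels are given in TPM (a relative abundance of transcripts, corrected for their length and scaled to a fixed total) as the mean ± SD over the libraries (n = 2), and the expected counts are the estimated reads of a gene.

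Kruppel-like factors are transcription factors that bind CACCC and GC boxes of promoters and enhancers through zinc fingers at the end of the protein. The fingers are alike across the family, while the parts before them differ and recruit coactivators such as p300 or corepressors such as CtBP and Sin3A. In blood formation the family is known for red cell genes (Klf1), for monocyte differentiation (Klf4) and for the resting state and trafficking of leukocytes (Klf2). Several members, among them Klf2, Klf4, Klf6 and Klf10, are also known as early response genes.

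The DNA-binding part shows how alike the members are. In GENCODE M21 transcripts on GRCm38, the stretch from the first cysteine of the first finger to the last histidine of the third was 81 residues long in all 10 members. The stretches of 5 members are printed 5′ to 3′ as spliced coding sequence, with the codons of the 12 zinc-binding cysteines and histidines in capitals. They include the closest pair (Klf6 and Klf7), the pair Klf2 and Klf4, and Klf9, which with Klf6 makes the most distant pair. They span chr13:5865272-5867277 (plus strand, 3 exons) for Klf6, chr1:64035719-64078779 (minus strand, 3 exons) for Klf7, chr8:72320170-72320913 (plus strand, 2 exons) for Klf2, chr4:55528131-55529790 (minus strand, 2 exons) for Klf4 and chr19:23142187-23164852 (plus strand, 2 exons) for Klf9.
Klf6: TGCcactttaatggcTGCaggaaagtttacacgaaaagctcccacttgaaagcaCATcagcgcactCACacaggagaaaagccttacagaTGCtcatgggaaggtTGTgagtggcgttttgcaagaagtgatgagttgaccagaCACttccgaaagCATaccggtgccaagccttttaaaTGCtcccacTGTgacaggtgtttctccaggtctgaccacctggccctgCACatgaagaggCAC
Klf7: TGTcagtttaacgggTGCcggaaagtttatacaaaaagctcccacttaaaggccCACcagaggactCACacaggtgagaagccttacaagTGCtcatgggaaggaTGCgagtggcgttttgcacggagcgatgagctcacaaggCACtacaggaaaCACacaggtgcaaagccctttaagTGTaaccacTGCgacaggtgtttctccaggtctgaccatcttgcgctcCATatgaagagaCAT
Klf2: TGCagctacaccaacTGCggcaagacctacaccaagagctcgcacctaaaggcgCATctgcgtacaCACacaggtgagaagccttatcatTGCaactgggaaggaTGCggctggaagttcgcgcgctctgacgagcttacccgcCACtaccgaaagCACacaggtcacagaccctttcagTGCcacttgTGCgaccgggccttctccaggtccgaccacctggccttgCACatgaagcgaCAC
Klf4: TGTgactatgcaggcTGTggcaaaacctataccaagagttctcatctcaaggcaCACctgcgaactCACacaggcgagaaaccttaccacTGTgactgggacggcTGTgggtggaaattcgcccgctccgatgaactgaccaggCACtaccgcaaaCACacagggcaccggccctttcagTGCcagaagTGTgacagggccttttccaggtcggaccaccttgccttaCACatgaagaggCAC
Klf9: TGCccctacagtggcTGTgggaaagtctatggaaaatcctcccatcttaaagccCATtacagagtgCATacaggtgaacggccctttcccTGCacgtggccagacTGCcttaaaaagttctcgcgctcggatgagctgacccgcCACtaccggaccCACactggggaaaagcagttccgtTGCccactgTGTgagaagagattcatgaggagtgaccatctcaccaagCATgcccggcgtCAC

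Of the 81 encoded residues, 45 were the same in all 10 members, of which 33 were not among the zinc-binding 12. Identity between members ranged from 60.5% to 95.1% of residues, with a median of 69.1% over the 45 pairs. Klf6 and Klf7 shared 77 residues, Klf2 and Klf4 shared 74, and Klf6 and Klf9 shared 49. Klf9, Klf10, Klf11 and Klf13 were 71.6% to 86.4% identical to each other and 60.5% to 69.1% identical to the other 6 members, which were 75.3% to 95.1% identical among themselves. The fingers ended 1 to 3 residues before the end of the protein in Klf1, Klf2, Klf3, Klf4, Klf6 and Klf7, and 19 to 39 residues before it in the other 4. Bases were less alike, at 55.6% to 81.1%, and 9 of the 10 members had whole-number expected counts in both libraries to the 2 decimals of the tables.

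**Figure D1:**
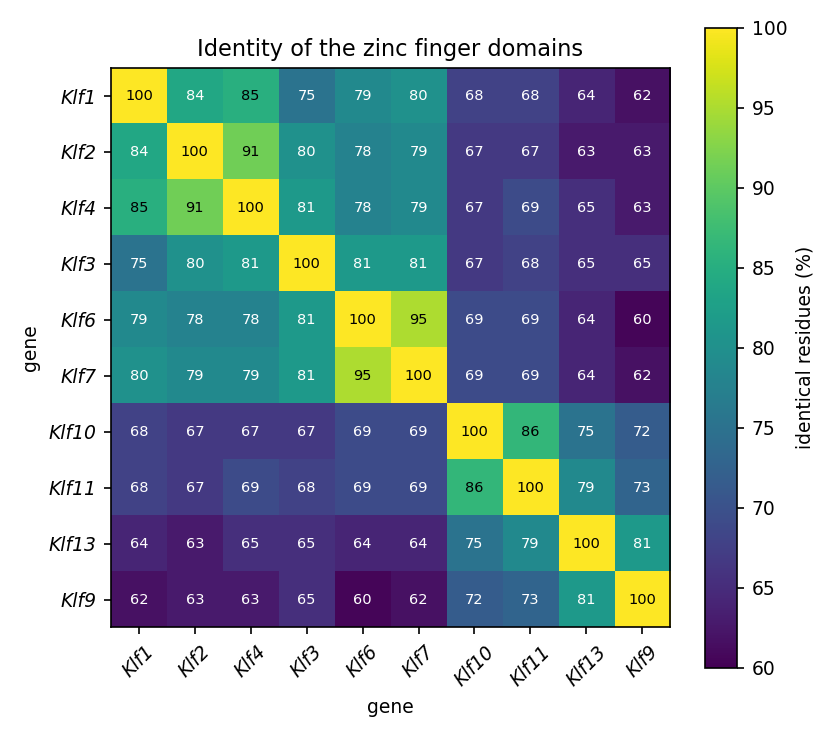
Identity between the zinc finger domains of the 10 Klf members, as the percent of 81 residues that are the same; both axes list the genes, and the colour and the printed value give the identity. Klf6 and Klf7 share 95.1% and Klf6 and Klf9 share 60.5%.

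Klf13 and Klf6 had the highest levels. Klf13 (ENSMUSG00000052040.9, chromosome 7, 63886351 to 63938915), a repressor and activator that can work through Sin3A, stood at 15.44 TPM in replicate 1 and 19.22 TPM in replicate 2, or 17.3 ± 2.7 TPM. Klf6 (ENSMUSG00000000078.6, chromosome 13, 5861482 to 5870394), a broadly expressed activator, stood at 12.05 TPM in replicate 1 and 26.35 TPM in replicate 2, or 19.2 ± 10.1 TPM. Klf13 thus led in replicate 1 and Klf6 in replicate 2, and their ranges over the libraries overlapped. Klf7 (ENSMUSG00000025959.9, chromosome 1, 64029447 to 64122282), whose fingers are closest to those of Klf6, had the lowest level of the 10 at 1.77 and 2.45 TPM, or 2.11 ± 0.48 TPM.

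The erythroid factor and its relative came next in replicate 1. Klf1 (ENSMUSG00000054191.7, chromosome 8, 84901928 to 84905291), the activator of adult beta globin and other red cell genes, stood at 9.28 TPM in replicate 1 and 5.10 TPM in replicate 2, or 7.19 ± 2.96 TPM. Klf3 (ENSMUSG00000029178.10, chromosome 5, 64803388 to 64832901), a repressor that recruits CtBP and is a known Klf1 target, stood at 10.68 and 7.34 TPM, or 9.01 ± 2.36 TPM. Both genes were lower in replicate 2.

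Klf2 and Klf4 had close levels and moved alike. Klf4 (ENSMUSG00000003032.8, chromosome 4, 55527143 to 55532466), a pluripotency factor that also acts in monocytes, stood at 5.08 and 9.86 TPM, or 7.47 ± 3.38 TPM. Klf2 (ENSMUSG00000055148.7, chromosome 8, 72319033 to 72321656), known from endothelium and resting lymphocytes, stood at 4.45 and 9.06 TPM, or 6.76 ± 3.26 TPM. Both genes were higher in replicate 2.

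The remaining 3 members are Klf9 and the pair Klf10 and Klf11. Klf10 (ENSMUSG00000037465.9, chromosome 15, 38291463 to 38300706), known as an early gene of TGF-beta signalling, stood at 6.67 and 7.33 TPM, or 7.0 ± 0.47 TPM. Klf9 (ENSMUSG00000033863.1, chromosome 19, 23141226 to 23168134), a target of the glucocorticoid receptor, stood at 6.34 and 6.16 TPM, or 6.25 ± 0.13 TPM. Klf11 (ENSMUSG00000020653.7, chromosome 12, 24651274 to 24662789), the close relative of Klf10, stood at 3.12 and 3.94 TPM, or 3.53 ± 0.58 TPM.

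**Figure D2:**
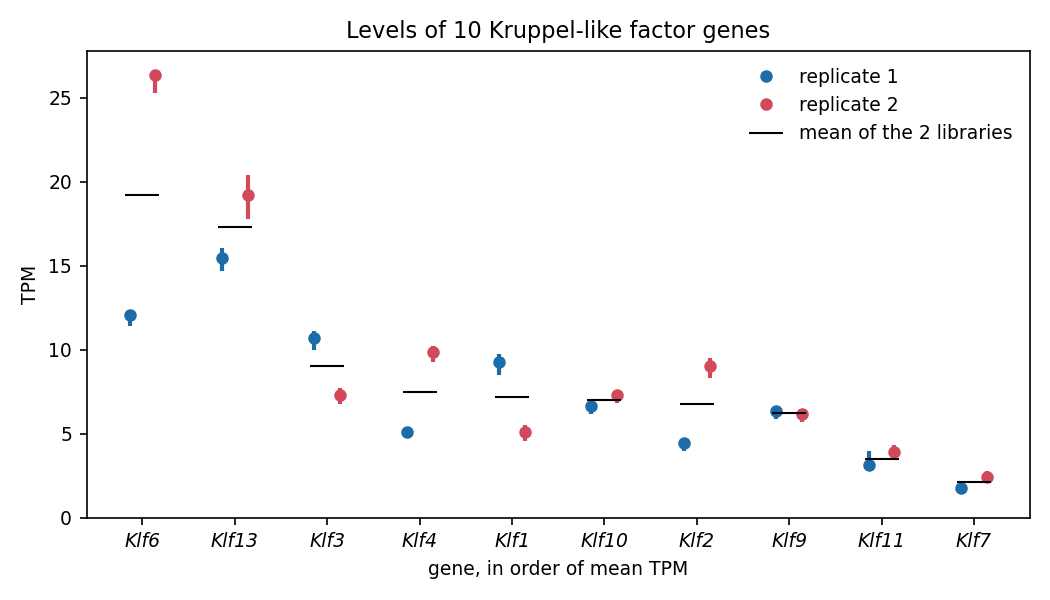
TPM of the 10 Klf members in order of their mean. Points are replicate 1 and replicate 2, vertical lines are the deposited credibility intervals of TPM, and horizontal marks are the mean of the 2 libraries. Klf6, at 12.05 and 26.35 TPM, is the member whose points lie farthest apart in TPM.

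By mean TPM the order was Klf6, Klf13, Klf3, Klf4, Klf1, Klf10, Klf2, Klf9, Klf11 and Klf7. Of the 9 neighbours in this order, 3 did not overlap in their ranges over the libraries: Klf13 lay above Klf3, Klf9 above Klf11, and Klf11 above Klf7. The ranges of the other 6 neighbours overlapped, although members farther apart in the order, such as Klf3 and Klf9, did not overlap. Of the 45 pairs of members, 32 had ranges that did not overlap, and 11 stood in opposite order in the libraries. Klf4 and Klf2 ranked at 7 and 8 in replicate 1 and at 3 and 4 in replicate 2, while Klf1 ranked at 4 in replicate 1 and at 8 in replicate 2.

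All 10 members reached 1 TPM in both libraries. The median level of the 9924 protein-coding genes that did so was 11.6 TPM, and of these genes 65.9% lay below Klf6, 34.9% below Klf1 and 7.35% below Klf7. The summed TPM of the members was 74.9 in replicate 1 and 96.8 in replicate 2. Klf2, Klf4 and Klf6, a grouping made after the values were seen, took 28.8% of this sum in replicate 1 and 46.8% in replicate 2. Klf1 and Klf3 took 26.7% and 12.8%, and the other 5 members took 44.5% and 40.4%.

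The reads of each gene were then compared between the libraries by an exact two-sided binomial test over 14304 genes, with Benjamini-Hochberg adjustment. It compares these libraries, not conditions, and covers counting error only. At an adjusted p under 0.05, 7 of the 10 members were higher in replicate 2, as were 29.2% of all genes tested, and 2 were lower, as were 29.5% of all genes tested. At these depths small ratios also passed, so a change of 2-fold or more was counted as well: Klf6 and Klf2 passed it, against 7.63% of all genes tested.

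Klf6 had expected counts of 3055 and 6200, a log2 ratio of 1.17 for replicate 2 over replicate 1 after normalization to library size (95% interval 1.11 to 1.23), or 2.25-fold. Klf2 had expected counts of 472 and 894 and a log2 ratio of 1.07 (0.91 to 1.23), and Klf4 had 913 and 1644 with a log2 ratio of 0.996 (0.88 to 1.12), just under 2-fold. With no filter on low counts the ratio of Klf4 was 1.00 and it was counted too. The exact binomial test gave an adjusted p of 3.76e-39 for Klf2 and 7.33e-64 for Klf4.

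Klf1 had expected counts of 805 and 411 and a log2 ratio of -0.82 (-0.995 to -0.65), or 1.76-fold higher in replicate 1. Klf3 had 1444 and 911 with a log2 ratio of -0.51 (-0.64 to -0.39), or 1.43-fold higher in replicate 1. The exact binomial test gave an adjusted p of 1.59e-20 for Klf1 and 2.14e-16 for Klf3.

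Smaller ratios toward replicate 2 passed the same test for Klf7 at 0.56, Klf11 at 0.38, Klf10 at 0.18 and Klf13 at 0.13. Klf9, with expected counts of 1231 and 1110, was the member that did not pass, and its interval of -0.12 to 0.12 bounds a difference between the libraries. Among all tested genes of 5 to 10 TPM, the median absolute log2 ratio was 0.19 and 1.23% differed by 2-fold or more. From 10 to 30 TPM these values were 0.13 and 0.65%, and from 1 to 5 TPM they were 0.32 and 9.22%. Klf1, Klf2, Klf3, Klf4, Klf6, Klf7 and Klf11 had absolute ratios above the median of their level, and Klf9, Klf10 and Klf13 below it.

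**Figure D3:**
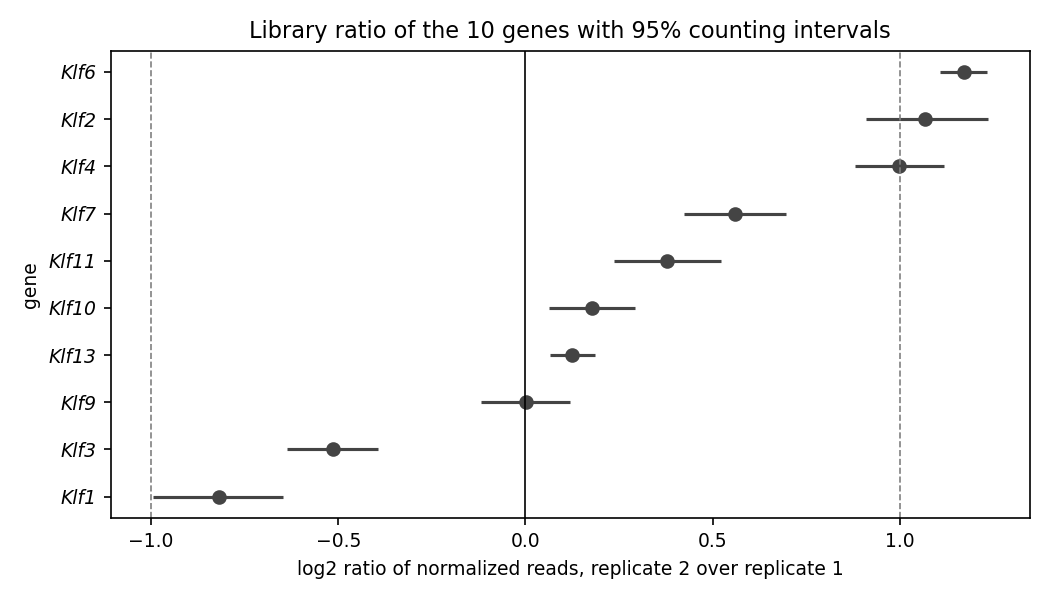
Log2 ratio of normalized reads, replicate 2 over replicate 1, for the 10 Klf members; points are the ratios, horizontal lines the 95% counting intervals, and dashed lines mark 2-fold. Klf6 and Klf2 lie beyond 2-fold, Klf4 at 0.996 lies on the line, and Klf1 and Klf3 lie on the other side of 0.

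Klf2, Klf4, Klf6 and Klf10 are known as early response genes, and the list of 14 immediate early genes was set beside them. Klf10 had a log2 ratio of 0.18, against 0.996 to 1.17 for the other 3. Of the 14 genes, 13 were higher in replicate 2 by the same test, against 29.2% of all genes tested. Egr2 (0.34 and 0.46 TPM) did not pass, and Egr1 (13.54 and 14.23 TPM) passed with a log2 ratio of only 0.11. The median log2 ratio of the list was 0.79, against 0.28 over the 10 Klf members and 0.00 over all genes tested. Zfp36, which encodes a protein that destabilizes mRNA, stood at 49.61 and 87.52 TPM, the AP-1 gene Fos at 38.81 and 59.92 TPM, and the phosphatase gene Dusp1 at 30.35 and 54.91 TPM. Atf3 (0.91 and 3.33 TPM) and Egr3 (0.16 and 0.61 TPM), the latter the lowest of the list, passed 2-fold as well. The summed TPM of the list was 210 in replicate 1 and 342 in replicate 2. The part of this shift in the values of these 4 Klf genes was not tested.

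Of 8 erythroid and megakaryocyte regulators, 7 were lower in replicate 2, as was Klf1, against 29.5% of all genes tested. The median log2 ratio was -0.23, and the ratios of Lmo2 (-0.10), Nfe2 (-0.13) and Ldb1 (-0.14) were small. Fli1, an ETS factor of the megakaryocyte lineage, was higher at 32.95 and 38.76 TPM. Gata1, the GATA factor of both lineages, stood at 10.81 and 4.48 TPM, a log2 ratio of -1.23. Its cofactor gene Zfpm1, the lowest of the list, stood at 8.90 and 5.04 TPM, while Lmo2 and Nfe2 stood at 196 and 177 TPM and at 57.4 and 47.4 TPM. Among 116 genes of the fixed lists outside the Klf and Sp families, Zfpm1 was also the closest to Klf1 in log2(TPM + 1) over the 2 libraries, at a Euclidean distance of 0.0562, followed by Gata1 at 0.253.

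The closest genes to the other members of 10 TPM or more were found the same way. They were Csf1r (14.42 and 19.12 TPM, distance 0.0927) and Crebbp (0.253) for Klf13, and the alpha globin gene Hba-a2 (10.81 and 22.57 TPM, distance 0.258) and the beta globin gene Hbb-bt (0.489) for Klf6. With 2 libraries such a distance reflects a level and a single ratio, and the globin genes share reads with near-identical copies, which makes their values uncertain.

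**Figure D4:**
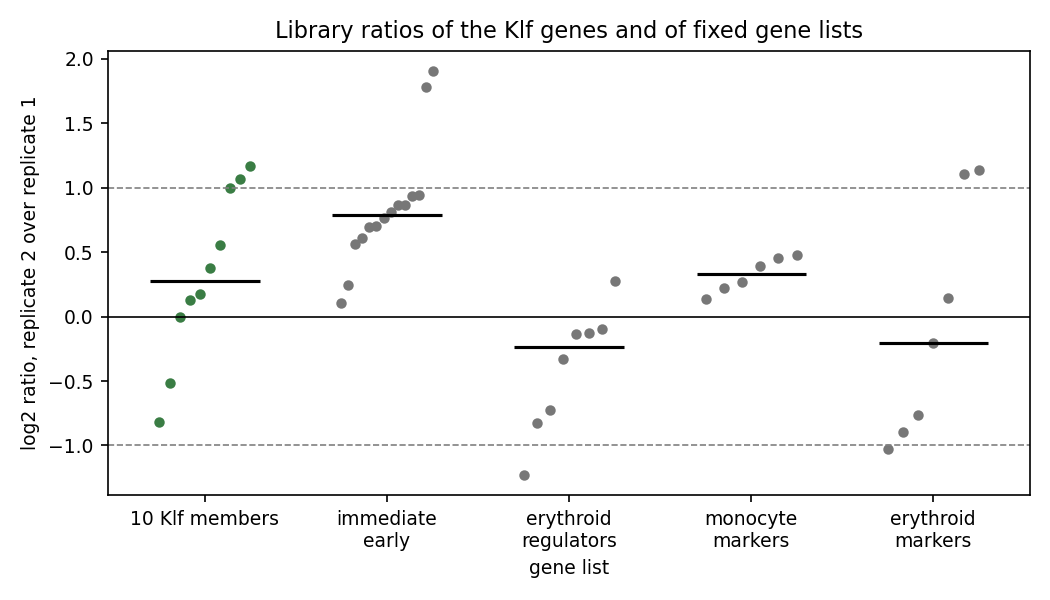
Log2 ratio of normalized reads, replicate 2 over replicate 1, for the 10 Klf members and 4 fixed gene lists; each point is a tested gene, horizontal bars are list medians and dashed lines mark 2-fold. The immediate early genes all lie above 0, with a median of 0.79, and 7 of the 8 erythroid regulators lie below 0.

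Of 14 listed targets of Klf1, 13 were matched and 12 tested, of which 5 were higher in replicate 2, 4 were lower and 3 did not pass. These counts are near the shares of all genes tested, 29.2% higher and 29.5% lower, and are no result about the targets. The adhesion receptor gene Cd44, which many blood cells express, was the highest at 75.22 and 75.51 TPM. Bcl11a, the repressor of embryonic globin genes, stood at 29.17 and 17.77 TPM, a log2 ratio of -0.60, in the direction of Klf1. The beta globin genes Hbb-bt (9.53 and 20.04 TPM) and Hbb-bs (6.87 and 18.39 TPM) were higher in replicate 2, against the direction of Klf1. Their log2 ratios were 1.12 and 1.62. These near-identical copies share reads, but a split of reads between them does not alter their sum. Expected counts were higher in replicate 2 for both, at 334.2 and 655.46 for Hbb-bt and 207.8 and 579.54 for Hbb-bs. Bcam, the lowest, was listed at 0 in each.

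Of 7 listed targets of Klf2 and Klf4, 6 were tested, of which 5 were higher in replicate 2, against 29.2% of all genes tested. Cd14, a coreceptor for lipopolysaccharide on monocytes, stood at 4.02 and 10.87 TPM, a log2 ratio of 1.47, and Thbd, which encodes thrombomodulin, stood at 4.93 and 5.81 TPM. S1pr1, the receptor for lymphocyte exit that Klf2 activates, was lower at 1.14 and 0.41 TPM, a log2 ratio of -1.41. The endothelial nitric oxide synthase gene Nos3, the lowest, had 0 and 0.05 TPM.

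Upstream genes of Klf2 and Klf4 were present. All 7 listed inducers reached 1 TPM in both libraries, and 5 were higher in replicate 2, against 29.2% of all genes tested, while Map2k5 and Mef2c did not pass. Spi1, which encodes the myeloid factor PU.1, stood at 75.06 and 97.66 TPM, Irf8, which acts before Klf4 in monocyte differentiation, at 33.54 and 49.30 TPM, and Mef2d at 32.33 and 38.55 TPM. Mapk7, the kinase ERK5 that acts on MEF2 factors, was the lowest at 2.56 and 3.32 TPM. All 11 genes listed as TGF-beta and glucocorticoid inputs of Klf9, Klf10, Klf11 and Klf13 also reached 1 TPM in both libraries, with 4 higher in replicate 2, 3 lower and 4 that did not pass, which is near the shares of all genes tested (29.2% and 29.5%). Tgfb1 led this list at 96.04 and 115.73 TPM, followed by the SMAD genes Smad4 at 13.65 ± 1.84 TPM and Smad2 at 13.4 ± 1.6 TPM, and the inhibitor Smad7 was the lowest at 1.74 ± 0.08 TPM. The glucocorticoid receptor gene Nr3c1 stood at 12.7 ± 0.8 TPM.

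Corepressor genes were well expressed. The median of their 7 mean levels was 34.9 TPM, against 7.10 TPM over the 10 Klf members, and none lay below 1 TPM. Hdac2 stood at 85.3 ± 3.0 TPM, Hdac1 at 48.1 ± 0.9 TPM and Ctbp1, a partner of Klf3, at 43.3 ± 1.9 TPM, and Ctbp2 was the lowest at 16.7 ± 2.8 TPM. Of these 7 genes, 2 were higher and 1 was lower in replicate 2, against 29.2% and 29.5% of all genes tested. Of 6 coactivator and turnover genes, Ep300, which encodes p300, stood at 34.1 ± 1.4 TPM, Smarca4 at 25.2 ± 1.1 TPM and Crebbp at 17.5 ± 0.5 TPM, and the ubiquitin ligase gene Fbxw7 was the lowest at 3.27 ± 0.24 TPM. Only Ep300 of the 6 passed the exact binomial test, higher in replicate 2 with a log2 ratio of 0.16. Of all genes tested, 29.2% were higher and 29.5% lower.

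The other 7 Klf genes had mean levels of 2.22 TPM or below, against 2.11 TPM for Klf7, the lowest member. Klf16, Klf5 and Klf8 stood at 2.22 ± 0.06, 1.37 ± 0.30 and 1.18 ± 0.25 TPM, within the range of Klf7 or below it. Klf12 stood at 0.18 and 0.02 TPM and Klf15 at 0.06 and 0 TPM. No read was assigned to Klf14 or Klf17. For Klf14 a count of 0 leaves room for levels up to 0.0165 TPM in replicate 1 and 0.0178 in replicate 2, and for Klf17 up to 0.0213 and 0.0230 TPM (3 reads per library, counting error only). Klf16 did not pass the exact binomial test, while Klf5 and Klf8 were higher in replicate 2, with log2 ratios of 0.49 and 0.47.

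Sp factors bind GC boxes through fingers of the same kind. Of the 9 Sp genes, Sp3 (45.3 ± 1.3 TPM), Sp1 (26.5 ± 0.5 TPM), Sp2 (10.2 ± 2.0 TPM) and Sp4 (3.72 ± 0.53 TPM) were found, while Sp5, Sp6, Sp7, Sp8 and Sp9 were listed at 0 in each. The summed TPM of the Sp genes was 83.5 in replicate 1 and 88.1 in replicate 2, against 79.5 and 102 for the 17 Klf genes. The log2 ratios of Sp1, Sp2 and Sp3 were 0.08, 0.44 and 0.17, and that of Sp4 was -0.25. By the exact binomial test 3 of these 4 were higher in replicate 2 and 1 was lower, against 29.2% and 29.5% of all genes tested.

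Transcript models mattered for Klf13 more than for the other members. Klf1, Klf2, Klf6, Klf9 and Klf10 had 1 transcript each in the tables. The leading transcript took 92.7% to 100% of the TPM of Klf3, Klf4, Klf7 and Klf11 in both libraries. By the deposited posterior mean values this share ran from 88.4% to 99.4%, with Klf11 lowest and Klf7 at 89.0%, both in replicate 1. For Klf13 the leading protein-coding ENSMUST00000063694.8 took 74.5% in replicate 1 and 62.6% in replicate 2, or 68.5% ± 8.4. It stood at 11.50 and 12.03 TPM. The 3 shorter transcripts summed to 3.94 and 7.18 TPM, of which ENSMUST00000185175.1 (487 bases) rested on 1.99 and 51.95 expected counts and ENSMUST00000183907.1, annotated as a retained intron, on 180 and 150. The gene had 4661 and 4584 expected counts, so its log2 ratio was 0.13 by reads and 0.32 by TPM.

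**Figure D5:**
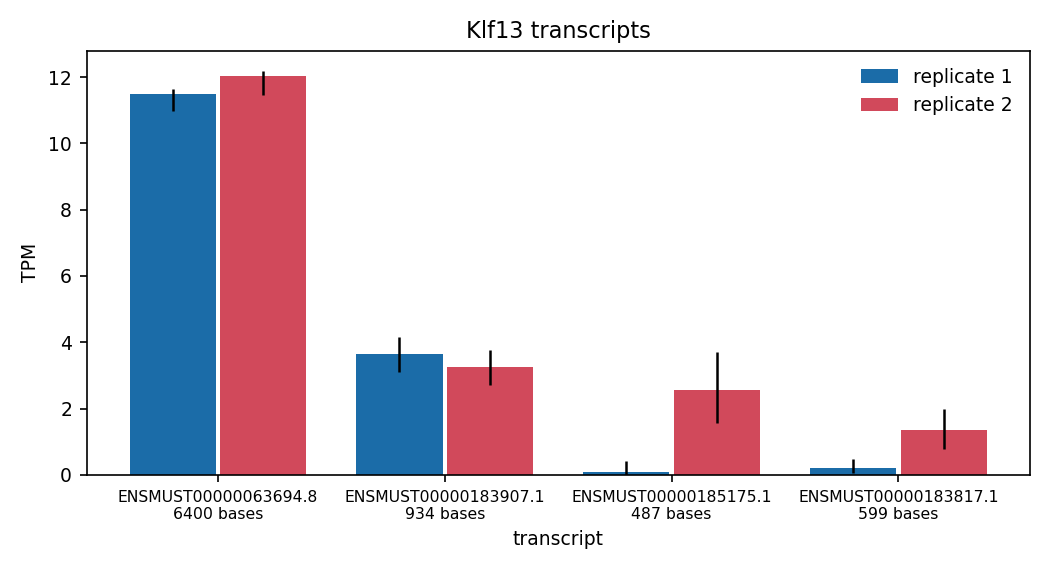
TPM of the 4 Klf13 transcripts, with the length of each under its name; bars are replicate 1 and replicate 2 and vertical lines the deposited credibility intervals. The leading transcript is close in both libraries at 11.50 and 12.03 TPM, while ENSMUST00000185175.1 is at 0.09 and 2.56 TPM.

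Neighbouring and overlapping annotation bears on some members. Klf7 was the member with fractional counts, 778.02 and 1034.18. Together with the lincRNA Gm26649, which overlaps it on the opposite strand and had 232.98 and 158.82 expected counts, it summed to the whole numbers 1011 and 1193. The Klf3 and Klf9 transcripts were 2314 and 3263 bases long in the annotation used by the authors, against 5221 and 4486 bases for the same identifiers in GENCODE M21. For the other 8 members the leading transcript differed by at most 112 bases. Whether reads fell outside the shorter models was not tested.

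The upstream sequences of Klf1, Klf2, Klf4 and Klf6 are printed because these members differed most between the libraries. They are the 250 bases before the start given by RefSeq on GRCm38.p6, 5′ to 3′ on the strand of the gene. For Klf1, Klf2 and Klf6 this start lies inside the gene as placed by GENCODE M21, so the window overlaps the gene. Capitals mark matches, on either strand, to the Klf motif CCACCC, the GC box GGGCGG, the cyclic AMP response element TGACGTCA, the GATA factor motif GATAA, the CArG box of serum response factor or the MEF2 motif, and overlapping matches run together. The windows lie at chr8:84901732-84901981 (plus strand), chr8:72318812-72319061 (plus strand), chr4:55532476-55532725 (minus strand) and chr13:5861239-5861488 (plus strand).
Klf1: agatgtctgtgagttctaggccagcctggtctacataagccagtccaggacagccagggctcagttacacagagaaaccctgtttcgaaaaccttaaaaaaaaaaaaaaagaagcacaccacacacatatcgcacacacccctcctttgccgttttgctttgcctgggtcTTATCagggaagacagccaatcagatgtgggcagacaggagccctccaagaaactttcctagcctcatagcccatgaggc
Klf2: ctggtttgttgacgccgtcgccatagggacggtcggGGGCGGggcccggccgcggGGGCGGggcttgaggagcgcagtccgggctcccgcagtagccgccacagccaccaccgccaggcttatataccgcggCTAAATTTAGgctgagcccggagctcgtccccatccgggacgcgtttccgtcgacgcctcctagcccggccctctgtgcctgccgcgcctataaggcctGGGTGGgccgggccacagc
Klf4: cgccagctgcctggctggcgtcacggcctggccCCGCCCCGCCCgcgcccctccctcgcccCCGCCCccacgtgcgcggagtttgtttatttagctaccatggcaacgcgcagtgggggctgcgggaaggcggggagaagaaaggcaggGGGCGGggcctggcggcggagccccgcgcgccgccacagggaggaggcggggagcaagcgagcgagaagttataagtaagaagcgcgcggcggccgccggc
Klf6: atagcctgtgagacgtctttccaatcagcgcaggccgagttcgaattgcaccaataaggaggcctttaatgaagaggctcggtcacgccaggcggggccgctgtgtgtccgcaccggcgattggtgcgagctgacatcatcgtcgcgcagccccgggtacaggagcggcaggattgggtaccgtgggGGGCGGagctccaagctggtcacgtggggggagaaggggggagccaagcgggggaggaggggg

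The Klf1 window held a GATAA match 80 to 76 bases before the start and was the only 1 of 9 member windows with that motif, which 22.6% of 32817 RefSeq windows of the same length held. The Klf2 window held a match to the MEF2 motif 118 to 109 bases before the start, found in 0.509% of all windows and in no other member window. GGGCGG was found for 7 of the 9 members (Klf2, Klf3, Klf4, Klf6, Klf7, Klf11 and Klf13), against 32.7% of all windows, and CCACCC for 4, against 28.1%. G and C made up 49.2% of the Klf1 window, the lowest of the 9, and 78.4% of the Klf3 window, the highest, with a median of 52.4% over all windows. TGACGTCA and the CArG box had no match in the 9 windows and were found in 1.55% and 1.47% of all windows. These are matches of letters in short windows, and binding was not measured.

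The libraries held 82746658 and 75652762 expected counts. Markers of the labelled lineage were low: 2 of 10 megakaryocyte genes reached 1 TPM in both libraries, Tubb1 had no reads, and the list summed to 11.2 and 6.8 TPM. The platelet glycoprotein gene Gp1ba (1.19 and 0.49 TPM) was lower in replicate 2 by 2-fold or more. Granulocyte markers (8 of 8 at 1 TPM or more, sums 14460 and 14091.5 TPM) and monocyte markers (6 of 6, sums 2903 and 3300 TPM) were high. Of the monocyte markers 5 of 6, and of the granulocyte markers 5 of 8, were higher in replicate 2, the direction of Klf4, against 29.2% of all genes tested. Among the granulocyte markers S100a8, named after its values were seen, had a log2 ratio of 0.92, above every monocyte marker, while Mpo (-0.16) and Elane (-0.36) were lower. Of the 7 erythroid markers, which summed to 705 and 393 TPM, 4 were lower in replicate 2, the direction of Klf1, against 29.5% of all genes tested, among them the carbonic anhydrase gene Car1 (512 and 242 TPM), and the alpha globin genes Hba-a1 and Hba-a2 were higher. Of the 7 lymphocyte markers none reached 1 TPM in both libraries and 5 had no reads. The endothelial gene Cdh5 had no reads either and Kdr stood at 0.04 and 0.01 TPM, while Pecam1, which blood cells also express, stood at 24.4 ± 0.4 TPM. The part of these cell types in the Klf values was not tested, and in bulk RNA fewer cells of a type and less RNA per cell cannot be told apart.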

How the data were processed

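Total RNA-seq of 2 libraries labelled megakaryocyte progenitor was analysed from the deposited gene and transcript tables. The deposited file lists name mm10 as the assembly and M4 as the GENCODE annotation, with separate tables for each library. Column names are those of RSEM; RSEM's version, the aligner and strand use were not given in the sources used here. The deposited expected counts are estimated reads, split where a read matches more than 1 feature. TPM values were scaled by the authors over all rows, so every gene's TPM depends on how much RNA other rows take up. The deposited percent values give each transcript's part of the TPM of its gene. In the deposited score columns are bounds of a credibility interval of unstated level.

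Symbols and positions came from GENCODE M21 (GRCm38, as mm10), which matched 98.0% of 43346 Ensembl rows, and Ahsp alone of the listed genes had no match. Rows that are not Ensembl genes took 0.003% of expected counts and were left out of tests. Counts were rounded to whole numbers, filtered with filterByExpr and scaled by TMM in edgeR 4.0.16 (R 4.3.3). Each of 14304 genes was compared between the libraries by an exact two-sided binomial test in scipy 1.17.1, with Benjamini-Hochberg adjustment at 0.05, a prior count of 2 in log2 ratios and 95% Clopper-Pearson intervals. The test recovered most of the known changes on simulated data, all of them larger than the ratios of the Klf members. The simulated counts held counting error only, so they do not cover other differences between libraries. With 1 group and no contrast, edgeR's own test was not run. Depth sets the precision: 3 reads give the limit that a count of 0 allows, and intervals and limits cover counting error only, because PCR copies are not independent molecules.

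Zinc finger stretches were found by the spacing of cysteines and histidines in translated GENCODE M21 coding sequences, and upstream sequences came from RefSeq, which held 9 of the 10 members in the table used. Named genes were the 10 members and, from each fixed list, the 3 highest, the lowest and those past 2-fold; a few others were named after their values were seen, and some genes under this rule are not reported here. The members and lists were chosen with earlier results of these data known. Alternatives were posterior mean TPM, TPM rescaled to protein-coding nuclear genes, DESeq2 1.42.0 size factors, total counts, a prior count of 0.5, no filter, counts divided by 4 and each library alone.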

Additional observations from a re-analysis of the deposited data

How the results depend on the processing

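With DESeq2 size factors, total expected counts, a prior count of 0.5, no filter or counts divided by 4, the log2 ratios of the Klf members moved by little (1.15 to 1.18 for Klf6 and -0.84 to -0.80 for Klf1), and the direction changed only for Klf9, at -0.0201 with total expected counts. The count of genes that differed by 2-fold or more between the libraries was 1091, and 3246 with no filter and 491 with counts divided by 4. The no-filter setting tests more genes and the other fewer reads. Klf6 and Klf2 passed in each of these settings. The median level over the 10 members was 7.10 TPM, ranged from 6.505 to 7.335 TPM in the single libraries, and was 17.6 TPM when TPM was rescaled to protein-coding nuclear genes. All 10 members stayed at 1 TPM or more in each library alone, and 7 reached 5 TPM in both. The leading Klf13 transcript took 62.6% to 74.5% in the single libraries. No paired analysis was possible because the samples form 1 group. With 2 libraries, the spread between animals was not measured.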

Other observations

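Levels of the members with the most alike fingers are given side by side. Klf6 and Klf7, at 95.1% identity, had mean levels of 19.2 and 2.11 TPM, and Klf10 and Klf11, at 86.4%, had 7.0 and 3.53 TPM. Klf2 and Klf4, at 91.4%, had 6.76 and 7.47 TPM and log2 ratios between the libraries of 1.07 and 0.996. Klf9 and Klf13, at 81.5%, had 6.25 and 17.3 TPM.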
